A study of Mus musculus with 6 samples.

Results

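The genotype-specific ATAC-seq peaks that lie deep inside long protein-coding genes numbered 1414 of 12105 (11.7%). A peak was counted when its midpoint lay inside a protein-coding gene of 200 kb or longer and more than 1000 bp from both ends of every protein-coding gene. ATAC-seq marks open chromatin by the insertion of sequencing adapters with the Tn5 transposase. It was run on microglia, the resident macrophages of the brain, obtained by sorting brain tissue of C57BL/6J mice aged 8 weeks by the labels. Both genotypes carried Tmem119-CreERT2, a recombinase that the microglial gene Tmem119 expresses and tamoxifen activates, and both received tamoxifen for 7 days from 7 to 8 weeks of age. The conditional knockout, cKO, had Mir137loxP/loxP alleles and the control, cWT, had Mir137+/+; Mir137 encodes the microRNA miR-137. The labels give 3 libraries per genotype, each of about 50000 sorted cells, and the series states 4 mice without tying them to libraries.

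The data are 1 list of specific peaks per genotype, 8615 for cKO and 3490 for cWT, without values per library. The spread between replicates and the sequencing depth are therefore unknown, and no test between genotypes was made. All intervals are exact 95% intervals (Clopper-Pearson for shares and for ratios of the lists, Poisson for densities, order statistics for medians of distance) and cover counting error only. Peaks inside the same gene are not independent of each other, so these intervals are too narrow. Positions are in mm10. The RefSeq table used gives each gene's span without exons, so a peak is described as inside a gene, not as exonic or intronic. A peak inside a gene is not shown to act on that gene. Counting peaks in or within 10 kb of defining marker genes, the cKO list had one at 10 of 12 microglial genes, 1 of 8 neuronal, 4 of 6 astrocyte, 4 of 7 oligodendrocyte, 5 of 6 vascular, 2 of 5 lymphocyte and 1 of 5 genes of other macrophages. For cWT-specific peaks the counts were 2 of 12, 1 of 8, 2 of 6, 1 of 7, 2 of 6, 0 of 5 and 1 of 5. The share of all coding genes with such a peak was not counted, so none of these counts can be read as high or low.

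Long genes are transcribed over great distances, and their interiors can hold enhancers, start sites of shorter transcripts and noncoding genes. Enhancers are stretches of open chromatin where transcription factors bind, and their accessibility differs between cell types. In the brain many of the longest genes encode synaptic adhesion proteins and channels of neurons, while macrophages use other long genes for signalling, motility and transcription control.

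A small number of the peaks fell on annotated start sites inside the long genes. RefSeq windows of GRCm38.p6, each running from 250 bases before a transcript start to 50 after it, were available for 744 of the 990 long genes. In that table, 493 starts of 329 long genes lay deep inside the gene. Of the 1414 peaks, 20 overlapped a window, 11 cKO-specific and 9 cWT-specific, and together they touched 21 windows. The host gene itself owned 12 of these windows, 7 with cKO-specific and 5 with cWT-specific peaks, and long noncoding RNA genes owned the other 9. The sequences below are shown because these are the peaks for which the open region can be placed on a known start of the host gene. They are the 250 bases before the start at the 5 host-gene starts where at least 100 of those bases lay inside the peak, 5′ to 3′ on the gene's strand, with the bases inside the specific peak in capitals. The first 4 were overlapped by cKO-specific peaks and Dock9 by a cWT-specific peak.
Frmd4a: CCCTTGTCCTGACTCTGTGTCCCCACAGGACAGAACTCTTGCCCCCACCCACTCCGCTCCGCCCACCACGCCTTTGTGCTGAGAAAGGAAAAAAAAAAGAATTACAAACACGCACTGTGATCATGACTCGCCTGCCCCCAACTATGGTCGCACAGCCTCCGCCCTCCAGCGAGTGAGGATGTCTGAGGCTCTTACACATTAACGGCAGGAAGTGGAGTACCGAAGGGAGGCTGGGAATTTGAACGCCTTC
Ripor2: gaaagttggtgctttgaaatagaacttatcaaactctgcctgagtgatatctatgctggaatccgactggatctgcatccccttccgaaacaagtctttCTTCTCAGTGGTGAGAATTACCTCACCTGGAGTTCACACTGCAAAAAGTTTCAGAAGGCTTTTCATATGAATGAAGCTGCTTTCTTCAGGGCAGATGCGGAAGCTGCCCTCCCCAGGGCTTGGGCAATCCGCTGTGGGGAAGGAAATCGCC
Sgms1: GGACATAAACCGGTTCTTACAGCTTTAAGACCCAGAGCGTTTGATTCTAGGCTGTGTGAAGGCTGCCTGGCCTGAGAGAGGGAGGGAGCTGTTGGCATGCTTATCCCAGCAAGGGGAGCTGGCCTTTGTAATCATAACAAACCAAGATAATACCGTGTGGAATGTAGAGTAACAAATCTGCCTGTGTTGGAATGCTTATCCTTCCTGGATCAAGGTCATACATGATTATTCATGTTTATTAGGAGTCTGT
Tbc1d22a: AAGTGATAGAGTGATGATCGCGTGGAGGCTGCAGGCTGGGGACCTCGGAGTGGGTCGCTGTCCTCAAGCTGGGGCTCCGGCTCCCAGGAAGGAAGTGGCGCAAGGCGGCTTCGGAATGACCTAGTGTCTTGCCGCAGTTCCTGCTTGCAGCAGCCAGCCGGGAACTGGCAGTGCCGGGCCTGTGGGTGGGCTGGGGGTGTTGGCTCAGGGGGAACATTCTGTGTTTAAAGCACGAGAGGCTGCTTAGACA
Dock9: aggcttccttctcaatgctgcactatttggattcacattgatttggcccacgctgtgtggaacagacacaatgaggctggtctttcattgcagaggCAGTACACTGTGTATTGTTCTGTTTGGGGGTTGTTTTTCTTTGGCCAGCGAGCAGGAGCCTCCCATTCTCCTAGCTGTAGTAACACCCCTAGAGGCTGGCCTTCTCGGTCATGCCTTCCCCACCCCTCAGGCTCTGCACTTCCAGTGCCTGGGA

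These stretches are chr2:4559504-4559753 (plus strand), chr13:24614356-24614605 (plus), chr19:32349317-32349566 (minus), chr15:86277425-86277674 (plus) and chr14:121698418-121698667 (minus). The peak of Frmd4a, the gene of a FERM-domain scaffold of cell polarity, covered all 250 bases, and the start lay 542 kb from the gene's outermost 5′ end. Peaks covered all 250 bases also at Sgms1, which encodes sphingomyelin synthase, and at Tbc1d22a, whose TBC domain is that of Rab GTPase-activating proteins. Those starts lay 40.6 kb and 63.3 kb inside. At Ripor2 151 bases were covered at a start 113 kb inside. At Dock9, an exchange factor gene for Cdc42, 154 bases were covered at a start 99.5 kb inside. GC content of the 5 stretches ran from 45.6% at Sgms1 to 62.0% at Tbc1d22a. The authors' p-value was 0.836 at Frmd4a, 0.441 at Ripor2, 0.697 at Sgms1, 0.651 at Tbc1d22a and 0.975 at Dock9, so the Dock9 peak was at the weak end of its list.

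Short motifs were looked for on both strands of the whole of the 12 host-gene windows, whether or not the peak covered the bases. In 6 of the 12 the peak covered at least 100 of the 300 bases, and in Prickle2, Rbfox1 and Ank2 it covered 5, 8 and 11. AGGAAGT, the core that PU.1 and other ETS factors recognise, was in 2 of 12, those of Frmd4a and Tbc1d22a, against 9.35% of all 32851 windows. TGTGGTT, a RUNX core, was in 1 of 12, that of Pde10a, against 5.27%, and lay outside the peak, which covers 54 of that window's 300 bases. TGANTCA, the AP-1 site, and CACGTG, the E-box, were in 0 of 12, against 7.81% and 7.15%. A match or its absence describes these letters only. Sequence of peaks outside the promoter windows was not used here.

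Deep interiors of long genes held 966 of the cKO-specific peaks, 11.2% of that list (10.6 to 11.9), and 448 of the cWT-specific peaks, 12.8% (11.7 to 13.99). The ratio of cKO-specific to cWT-specific peaks there was 2.16 (1.93 to 2.42). Over all peaks outside long interiors it was 2.51 (2.41 to 2.62), so cKO-specific peaks outnumbered cWT-specific ones by somewhat less inside long genes. Among members with an authors' p-value up to 0.5, 85 cKO-specific and 20 cWT-specific, the ratio was 4.25 (2.59 to 7.31). At that limit the whole lists held 1042 cKO-specific and 215 cWT-specific peaks. Members were 8.16% and 9.30% of these, so the larger ratio is not particular to long genes. These differences were not tested. Of the 990 long genes, 348 (35.2%) held a cKO-specific member, 269 (27.2%) a cWT-specific member and 432 (43.6%) either; 185 held both, 163 cKO-specific members only, 84 cWT-specific members only, and 558 none. The number of members was greater in cKO at 274 genes, greater in cWT at 109 and equal at 49.

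**Figure D1:**
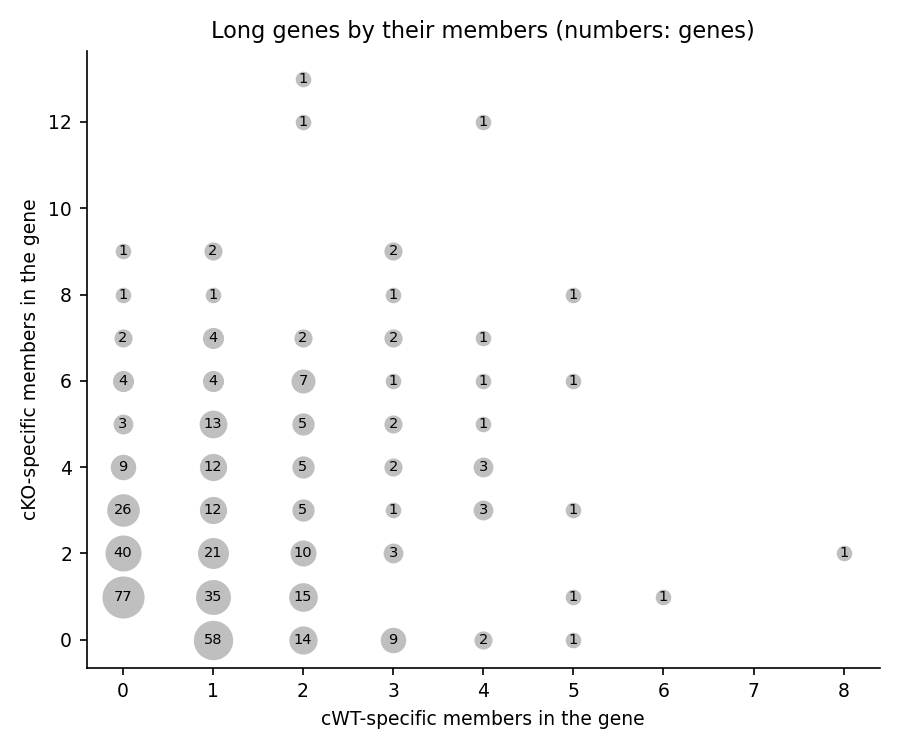
Long genes with at least 1 member, placed by their number of cWT-specific (x axis) and cKO-specific members (y axis); the printed number is the count of genes at that place and the disc grows with it. Most genes sit at the lower left, 77 with a single cKO-specific and 58 with a single cWT-specific member, while Foxp1 (8 and 2) and Rad51b (2 and 13) stand at the edges.

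Density fell with length among the long genes. Per Mb of deep interior, genes of 200 to 300 kb held 4.25 cKO-specific peaks (3.86 to 4.67) and 1.68 cWT-specific peaks (1.43 to 1.95). Genes of 300 to 500 kb held 2.64 (2.36 to 2.94) and 1.29 (1.09 to 1.50), and genes of 500 to 1000 kb held 1.55 (1.32 to 1.80) and 0.796 (0.638 to 0.980). The 59 genes of 1000 kb or longer held 0.391 (0.266 to 0.556) and 0.354 (0.235 to 0.511). Intervals of neighbouring classes of long genes do not overlap in cKO, and in cWT they do at the step from 200 to 300 kb to 300 to 500 kb. The deep interiors of genes under 200 kb held 6.05 cKO-specific (5.85 to 6.26) and 2.23 cWT-specific peaks per Mb (2.11 to 2.36), above all classes of long genes. In genes under 50 kb, of 50 to 100 kb and of 100 to 200 kb the cKO-specific densities were 6.80, 6.09 and 5.18. The cWT-specific densities were 2.18, 2.30 and 2.24, without a steady fall. The count per long gene did not grow with length. Across the 990 genes Spearman's rank correlation between length and members was -0.015 in cKO and 0.0032 in cWT, given as a description since genes are not replicates.

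Among the long genes the surplus of cKO-specific peaks also became smaller along this axis. The ratio of cKO-specific to cWT-specific peaks was 2.54 (2.12 to 3.05) in genes of 200 to 300 kb, 2.05 (1.69 to 2.49) in those of 300 to 500 kb and 1.94 (1.49 to 2.54) in those of 500 to 1000 kb. In genes of 1000 kb or longer 31 cKO-specific peaks stood against 28 cWT-specific ones, which gives 1.11 (0.643 to 1.92), an interval that takes in parity. In genes under 50 kb the ratio was 3.12 (2.81 to 3.48) and in those of 50 to 100 kb 2.65 (2.35 to 2.98). In genes of 100 to 200 kb it was 2.32 (2.07 to 2.60), below that of 200 to 300 kb, so it did not fall at every step. The lowest ratio among the long genes thus falls where the peaks of both lists are sparsest. The trend over classes was not tested.

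**Figure D2:**
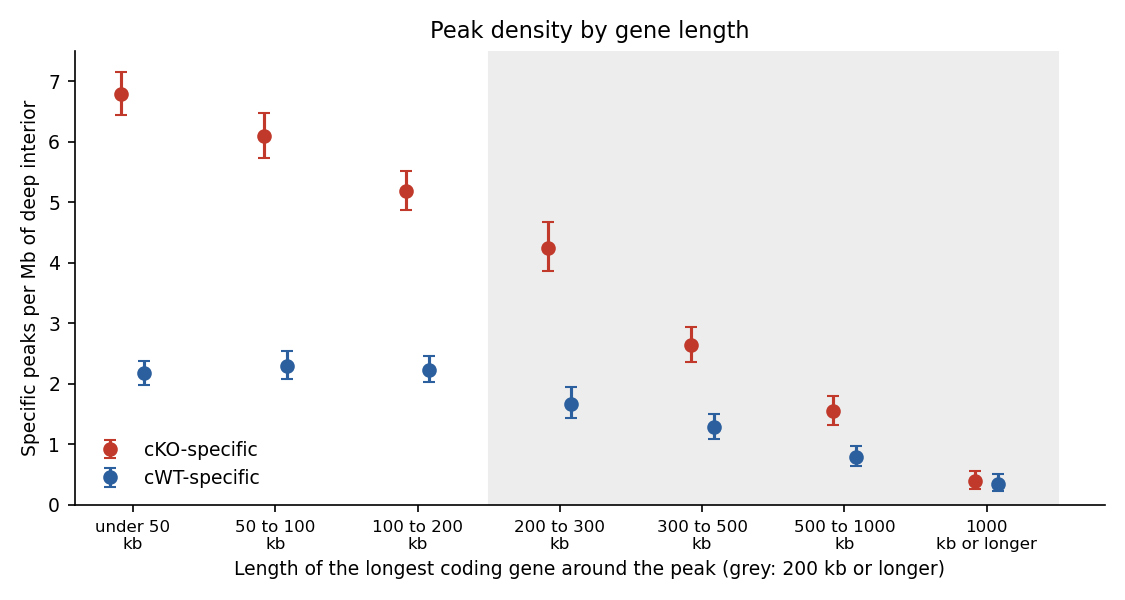
Specific peaks per Mb of deep gene interior (y axis) by the length of the longest coding gene around the peak (x axis), with exact Poisson 95% intervals as bars; the grey field marks genes of 200 kb or longer. cKO-specific density falls from 4.25 at 200 to 300 kb to 0.391 at 1000 kb or longer, where it meets the cWT-specific density of 0.354.

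The 10 longest genes held few members for their length, 8 cKO-specific and 4 cWT-specific over 20.0 Mb of gene span. By gene they were near the background, as 6 of the 10 held no member, against 558 of all 990 long genes. Dmd, the dystrophin gene (2390 kb), the receptor phosphatase gene Ptprd (2271 kb), the adhesion gene Lsamp (2197 kb), the lipoprotein receptor gene Lrp1b (2058 kb), the synaptic scaffold gene Dlg2 (1973 kb) and the neurexin gene Nrxn3 (1612 kb) held no member of either list. Cntnap2, a neurexin-family gene of 2241 kb, held 2 cKO-specific members, Macrod2 2 and 1 cWT-specific, Csmd1 4 cKO-specific, and Fhit, a fragile-site gene of 1612 kb, 3 cWT-specific. Each peak carries a number that rises with position along the chromosome and was read as its place in the genotype's full list of called peaks, so the numbers of the nearest listed peaks outside a gene limit how many peaks were called inside it. By this count at most 9 peaks were called in cKO over all of Dmd, at most 6 over Ptprd and at most 9 over Lsamp. In cWT the limits were 35, 9 and 4. Over the 10 longest genes together the limit was 5.70 called peaks per Mb in cKO, against at least 10.4 per Mb over the 132 long genes of the signalling and cytoskeleton lists described next. In cWT the corresponding limits, at most 10.9 and at least 3.54, overlap. Few called peaks, specific or not, were thus found in cKO in these very long genes.

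Long genes were grouped by 13 lists with 811 distinct genes, of which 428 are 200 kb or longer. Some of the lists differed in density by more than their counting intervals, while the intervals of others overlapped. In cKO, for example, transcription factors held 4.14 per Mb (3.28 to 5.16) and membrane trafficking and transporter genes 4.17 (3.15 to 5.41). The actin, adhesion and podosome list was the most widely covered: 27 of 33 genes held a cKO-specific member and 19 of 33 a cWT-specific one, against 35.2% and 27.2% of all long genes. Its density was 7.98 (6.62 to 9.53) and 2.51 (1.77 to 3.44) per Mb. It was led by Frmd4a with 12 cKO-specific and 4 cWT-specific members, Sh3pxd2a, a podosome scaffold gene, with 12 and 2, and Nav3, a gene of the microtubule-binding navigator family, with 9 and 0. Magi1, a scaffold of cell junctions, had 7 and 4.

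Regulators of small GTPases followed. Ras, Rap and Ral regulators had the highest cKO-specific density, 10.02 per Mb (7.22 to 13.5), with 42 cKO-specific and 9 cWT-specific members in 12 of 16 genes. The name of this list does not describe every gene on it, among them Cask with 4 and 0, Map3k5 with 1 and 1 and Mapk10 with 0 and 0. Rapgef5, a Rap exchange factor gene, had 7 and 1, Ralgps1, a Ral exchange factor gene, 6 and 1, Rgl1, a Ral exchange factor gene, 6 and 0, and Spata13, a Rac and Cdc42 exchange factor gene, 4 and 2. Among other long genes of this kind, Akap13, which encodes an anchor of protein kinase A, had 9 and 3, Srgap2, a Rac GTPase-activating gene, 7 and 1, Farp1 6 and 0, and Dock10, an exchange factor gene for Cdc42, 2 and 3.

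Enzymes of lipid and calcium signalling were nearer to the average of long genes. Of 31 genes, 17 held a cKO-specific and 11 a cWT-specific member, at 2.59 (1.82 to 3.57) and 1.26 (0.746 to 1.99) per Mb, against 2.32 and 1.07 over all long genes. Prkce, the gene of protein kinase C epsilon, had 7 and 0, and Camk2d, a calmodulin-dependent kinase gene, 3 and 0. The cyclic AMP phosphodiesterase gene Pde4d had 3 and 4, and Inpp4b, a phosphoinositide phosphatase gene, 0 and 3. Among tyrosine kinases, phosphatases and adaptors 13 of 22 genes held a member, at 2.97 (1.97 to 4.29) and 0.741 (0.298 to 1.53) per Mb, with 5 and 2 at the receptor phosphatase gene Ptprm, 5 and 1 at Igf1r, the receptor gene of insulin-like growth factor 1, 4 and 1 at the calcineurin gene Ppp3ca and 0 and 2 at the kinase gene Fer.

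Transcription factor genes held 80 cKO-specific and 49 cWT-specific members, a ratio of 1.63 (1.13 to 2.38), whose interval overlaps that of all long genes, 2.16 (1.93 to 2.42). Of 48 long genes, 21 held a cKO-specific and 21 a cWT-specific member (43.8% each), against 35.2% and 27.2% of all long genes. The cKO-specific side was led by Zfhx3, a homeobox factor gene, with 9 and 3, Etv6, an ETS repressor gene, with 8 and 3, and the forkhead gene Foxn3 with 7 and 3. The cWT-specific side was led by Foxp1, another forkhead gene, with 2 and 8, and Klf12, a Kruppel-like factor gene, with 6 and 4. Tshz2 and Glis3, both zinc finger factor genes, had 0 and 4 and 0 and 3. No long transcription factor gene other than Foxp1 had more than 4 cWT-specific members.

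Chromatin and RNA regulators had 78 and 30 members in 21 of 27 genes, at 6.38 (5.04 to 7.96) and 2.45 (1.65 to 3.50) per Mb. Rad51b, a DNA repair gene, had 13 and 2, Arid1b, a subunit gene of the BAF remodelling complex, 6 and 5, the Mediator gene Med12l 6 and 2, and Hdac9, a histone deacetylase gene, 6 and 0. Trappc9, which was put on this list although its product is known from vesicle tethering, had 1 and 5. Membrane trafficking and transporter genes had 56 and 31 members in 24 of 35 genes, a ratio of 1.81 (1.14 to 2.90), with 8 and 5 at the sorting nexin gene Snx29, 6 and 0 at Tbc1d22a, 5 and 3 at Ldlrad4 and 3 and 5 at Vps13d, which encodes a lipid transfer protein. Ubiquitin ligases and deubiquitinases had 14 and 7 members in 8 of 14 genes, with 3 and 1 at Mycbp2, 3 and 0 at Hecw2 and at Rnf150, 1 and 2 at Nedd4l and 0 and 2 at Klhl32. Of growth factor, cytokine and immune receptor genes 5 were long, and 1 of these, Ltbp1, held 1 cKO-specific member.

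Neuronal genes held few members for their length. Of 79 adhesion and guidance genes, 17 held a member, with 25 cKO-specific and 13 cWT-specific peaks over 69.0 Mb, or 0.362 (0.234 to 0.535) and 0.188 (0.100 to 0.322) per Mb. Sdk1, an immunoglobulin adhesion gene, had 4 and 1, Csmd1 4 and 0, Csmd3 3 and 1, and the catenin genes Ctnna2 and Ctnnd2 0 and 2 and 1 and 2. Of 78 genes of channels, receptors and transmitter release, 24 held a member, at 0.798 (0.549 to 1.12) and 0.653 (0.430 to 0.950) per Mb, with 5 and 1 at the presynaptic gene Rims2, 4 and 4 at the calcium channel gene Cacna1d, 3 and 4 at the ankyrin gene Ank2 and 0 and 3 at Grm3, a metabotropic glutamate receptor gene. Genes known as common fragile sites, which overlap these lists, held 22 and 12 members in 14 of 25 genes, with 4 and 1 at Wwox and 3 and 2 at the polarity gene Pard3b.

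Signalling and neuronal genes differed also at like length. Among genes of 200 to 300 kb the 57 genes of the 5 signalling and cytoskeleton lists held 10.7 cKO-specific (9.06 to 12.5) and 2.83 cWT-specific peaks per Mb (2.02 to 3.86), and the 21 neuronal genes 0.379 (0.0459 to 1.37) and 1.14 (0.418 to 2.48). Among genes of 300 to 500 kb the values were 4.26 and 1.19 against 1.27 and 0.636, and among genes of 500 to 1000 kb 3.71 and 1.53 against 0.511 and 0.391. The 6 signalling and 38 neuronal genes of 1000 kb or longer held 0.976 (0.392 to 2.01) and 1.25 (0.574 to 2.38) against 0.253 (0.135 to 0.432) and 0.156 (0.0672 to 0.307), where the cKO-specific intervals overlap. In each of the 3 shorter classes the cKO-specific intervals of the 2 sets do not overlap; the cWT-specific intervals overlap in the first and second. The lists were written with earlier results of these data known, and Sh3pxd2a, Rad51b, Akap13, Rapgef5 and Foxp1 among their members were already known to carry many peaks. Without the 10 genes with the most members the signalling lists held 6.13 peaks of both genotypes per Mb in place of 7.06, and the neuronal lists remained at 0.888. Those 10 genes include Sh3pxd2a, Rad51b and Akap13 but not Rapgef5 or Foxp1, so this value does not remove all genes known beforehand. Called peaks of any kind, limited by the peak numbers as above, were at most 11.5 per Mb in cKO over the 157 neuronal genes. Over the 132 signalling and cytoskeleton genes they were at least 10.4, so these limits overlap. The cWT limits, at most 20.7 and at least 3.54, overlap too. Of the 8 neuronal markers 1, Rbfox3, had a specific peak in or near it, in both lists, with no share over all coding genes to set beside it. What part the cell type has in the contrast between lists of genes was not tested.

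**Figure D3:**
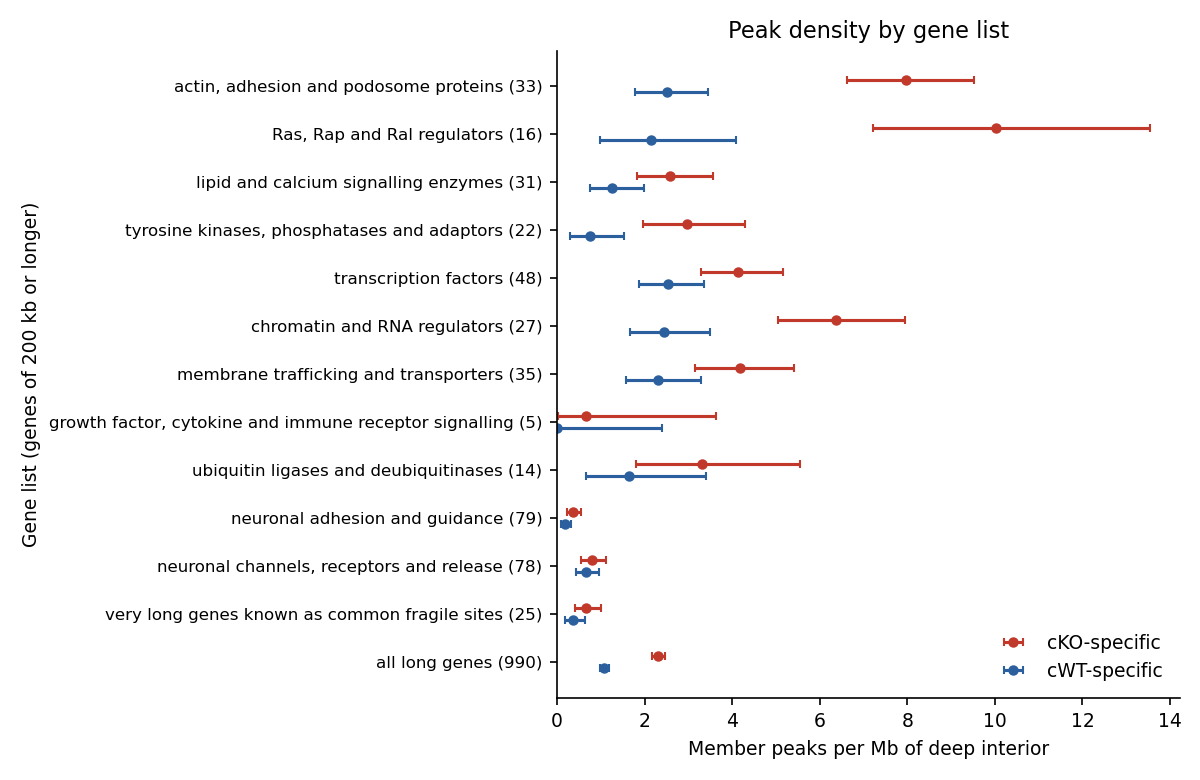
Member peaks per Mb of deep interior (x axis) for 12 gene lists and all long genes (y axis, with the number of genes of 200 kb or longer in brackets), with exact Poisson 95% intervals. The cKO-specific points run from 0.362 in neuronal adhesion and guidance to 10.02 in Ras, Rap and Ral regulators, while the cWT-specific points stay at or below 2.54.

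Along single genes the members were unevenly placed. At Rad51b (chromosome 12, 79297282 to 79848260) the 13 cKO-specific members lay in 3 groups, 3 of them 50.6 to 62.3 kb from the 5′ end, 3 at 333 to 345 kb and 7 at 447 to 544 kb. The highest-scored of these was 79630145 to 79630788, with an authors' p-value of 0.159. The 2 cWT-specific members, 79755142 to 79755385 and 79808015 to 79808218, both lay in the last group and each overlapped the edge of a cKO-specific member, 79754854 to 79755157 and 79807587 to 79808033. From 19 to 21 peaks were called over the gene in cKO, so 61.9% to 68.4% of them were specific, against 25.8% of all numbered cKO peaks. Rad51b is named here for its many specific peaks, so nothing follows from that share.

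At Frmd4a (chromosome 2, 4017650 to 4614043) the 12 cKO-specific members lay 205 to 574 kb from the 5′ end, and the first stretch of the gene held only the cWT-specific peak at 136 kb. The other cWT-specific members were at 283, 441 and 550 kb. The peak at 4493116 to 4493463, with an authors' p-value of 0.126, was among the 5 highest-scored cKO-specific members of all long genes. At Akap13 (chromosome 7, 75455526 to 75754609) 9 cKO-specific members lay 141 to 293 kb from the 5′ end, and the last 6, which span 39.1 kb, carry consecutive numbers. The 3 cWT-specific members were at 120, 260 and 284 kb, so 2 of them lay within the cKO-specific run.

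Runs of consecutive numbers, in which every called peak of a stretch was specific, held a larger share of members in cKO than in cWT. In cKO, 67 runs of at least 3 held 236 of the 966 members (24.4%), and in cWT 10 runs held 33 of 448 (7.37%). Among all numbered peaks the specific share was also higher in cKO (25.8%) than in cWT (12.1%), and the part of this in the runs was not tested. Runs were not counted over the whole lists, so they are not shown to be particular to long genes. The longest cKO runs had 6 peaks, at Akap13, at Gas7, a gene first described in growth-arrested cells (chromosome 11, 67495125 to 67564963), at Rad51b (79754854 to 79841703) and at Nav3 (chromosome 10, 109876360 to 109966165). The longest cWT runs had 4, at Smyd3, a lysine methyltransferase gene (chromosome 1, 178988712 to 179054596), at the splicing regulator gene Rbfox1 (chromosome 16, 6839750 to 7070589) and at Tshz2 (chromosome 2, 169700199 to 170002978). Some listed peaks adjoin or overlap, 37 pairs in cKO and 6 in cWT, and may be parts of 1 region. At Gas7, 67526630 to 67527168 and 67527169 to 67527330 have the same authors' signal of 31.0.

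**Figure D4:**
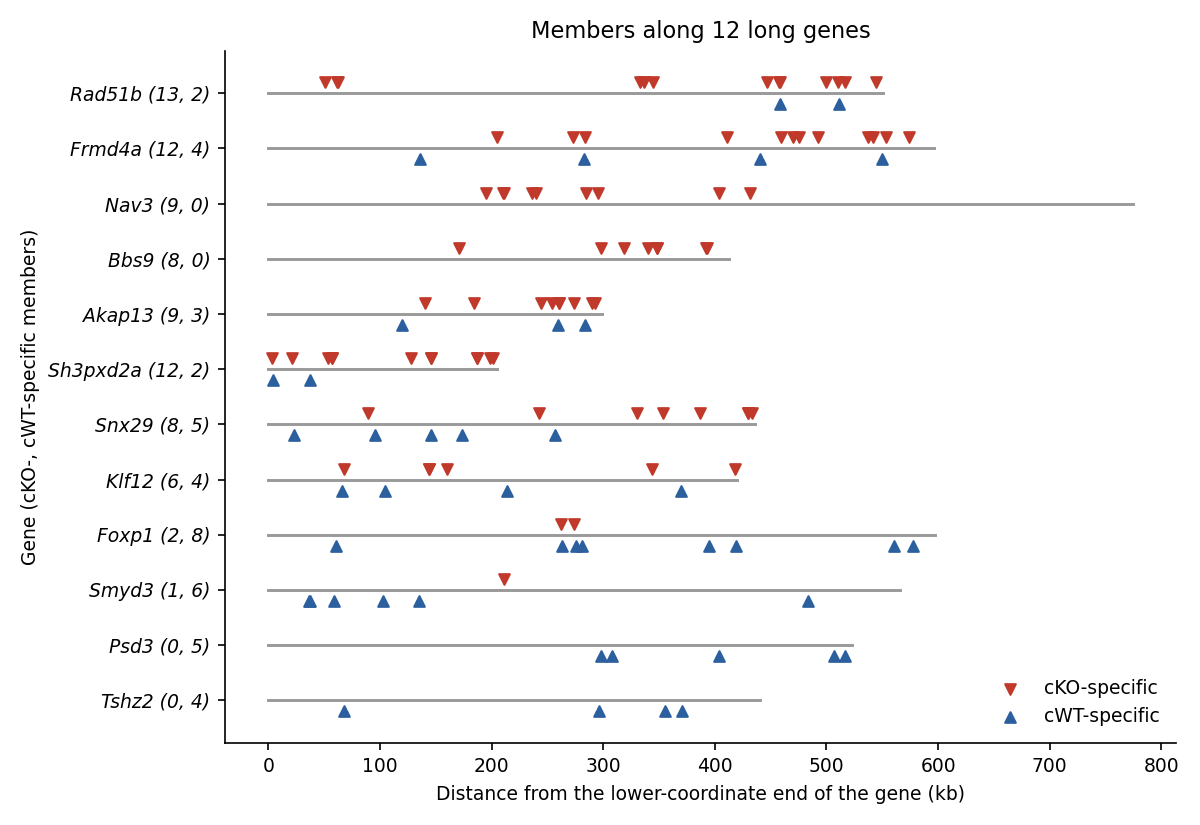
Members along 12 long genes, as distance of each peak's midpoint from the lower-coordinate end of the gene in kb (x axis); triangles above the line are cKO-specific, triangles below it cWT-specific, and brackets give their numbers. Rad51b, Frmd4a, Nav3 and Bbs9 carry mostly or only cKO-specific members, and Foxp1, Smyd3, Psd3 and Tshz2 mostly or only cWT-specific ones.

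Genes with 6 or more cKO-specific and 0 cWT-specific members numbered 8. They were Nav3 with 9, Bbs9, a gene of the ciliary BBSome complex, with 8, Lpp, a gene of a focal adhesion protein, and Prkce with 7 each, and Farp1, Hdac9, Rgl1 and Tbc1d22a with 6 each. The 8 members of Bbs9 (chromosome 9, 22475559 to 22888283) lay 171 to 393 kb from its 5′ end. In cWT at most 23 peaks were called over Bbs9 and at most 16 over Nav3, so open regions were not necessarily absent there. Among the others with many cKO-specific members, Rptor, the raptor gene of the mTORC1 complex, and Sdccag8, a centrosome protein gene, had 9 and 1 each, Chn2, a Rac GTPase-activating gene, 8 and 1, and Asap1, an Arf GTPase-activating gene, 7 and 3.

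Genes with 3 or more cWT-specific and 0 cKO-specific members numbered 12. Psd3, an exchange factor gene for Arf6, had 5 (chromosome 8, 67986573 to 68206184), Tshz2 and the kinase gene Cdk14 had 4 each, and Agbl4, Fhit, Glis3, Grm3, Inpp4b, Rbms1, St3gal3, St6galnac3 and Ttc7b had 3 each. The span of Rbms1 also held 1 cKO-specific peak that was not a member. At Foxp1 (chromosome 6, 98925342 to 99522746) the 8 cWT-specific members lay 20.4 to 537 kb from the 5′ end. Its 2 cKO-specific members lay near 2 of these: 99187614 to 99187813 beside the cWT-specific 99188053 to 99188464, and 99199306 to 99199557 beside 99200604 to 99200815. The authors' p-value of the 10 Foxp1 members ran from 0.847 to 0.964. Smyd3 had 6 cWT-specific members and 1 cKO-specific, and Trappc9 5 and 1.

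Members of the 2 lists also lay side by side elsewhere. A peak of the other list was within 1000 bp of 40 cKO-specific members (4.14%, 2.97 to 5.60) and of 34 cWT-specific members (7.59%, 5.31 to 10.4), and 15 members of each list overlapped one. At Arid1b, a cWT-specific member at 5175529 to 5175974 and a cKO-specific member at 5176016 to 5176263 (chromosome 17) adjoined in this way. At Cacna1d, cKO-specific 30405519 to 30405880 overlapped cWT-specific 30405869 to 30406337 (chromosome 14). In such places both genotypes had a called peak at nearly the same position. Leaving out all peaks that overlap the other list changed the member share from 11.2% to 11.3% in cKO and from 12.8% to 13.1% in cWT. Overlap was thus no more frequent among members than over the whole lists. The share with a neighbour within 1000 bp was not counted over the whole lists, so it is not shown to be particular to long genes.

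cKO-specific members lay nearer to an end of the host gene than cWT-specific ones at the median. The median distance to the nearer end was 72.8 kb in cKO (95% interval 67.4 to 77.0, quartiles 32944 and 119632 bp) and 85.5 kb in cWT (77.3 to 92.6, quartiles 37572 and 131635 bp), in hosts with a median length of 328 and 345 kb. The difference was not tested, and its direction turned among members with an authors' p-value up to 0.5 (88.5 kb in cKO and 87.9 kb in cWT) and in hosts of 500 kb or longer (168 and 166 kb). More than 100 kb from both ends of the host lay 35.2% and 40.8%. For the 1111 members whose host has a strand in the promoter table, position was counted from the 5′ end in 5 equal parts of the gene. The part nearest to the 3′ end held 199 of 756 cKO-specific members (26.3%, 23.2 to 29.6), and the other parts held 17.1% to 20.2%. The 355 cWT-specific members were spread from 17.5% to 21.7%, with 19.7% (15.7 to 24.2) in the part nearest to the 3′ end. Whether the genotypes differ in that part was not tested.

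**Figure D5:**
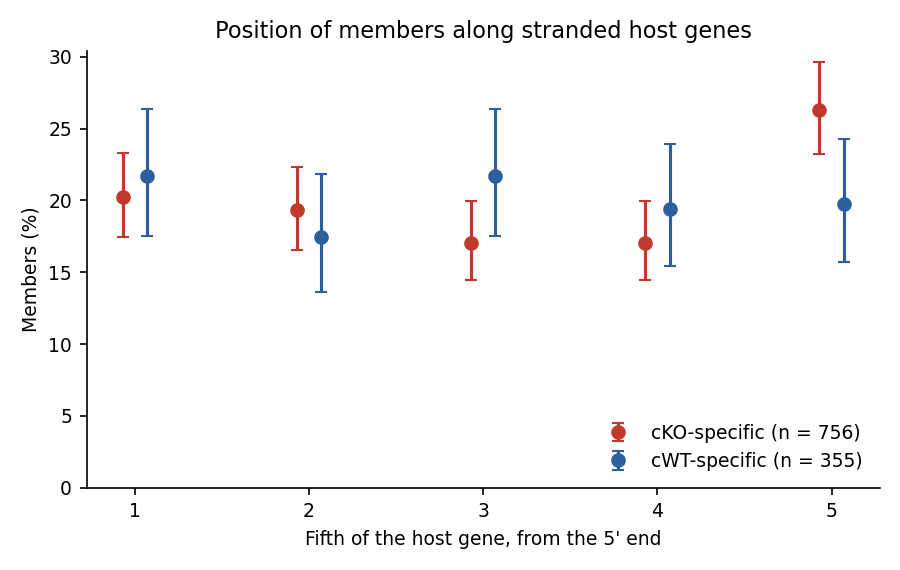
Share of members (y axis, %) in 5 equal parts of the host gene counted from its 5′ end (x axis), for hosts with a known strand, with exact 95% binomial intervals. The highest point is the 26.3% of cKO-specific members in the part at the 3′ end, where cWT-specific members stand at 19.7%.

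Members were similar in width to other peaks and slightly weaker authors' values. Median width was 306 bp in cKO members and 314 bp in the whole cKO list, and 316 and 322 bp in cWT. The median authors' signal, which has no stated scale and is compared only within a list, was 15.9 against 16.5 in cKO and 13.3 against 13.7 in cWT. The authors' p-value was up to 0.5 for 85 cKO-specific members (8.80%, 7.09 to 10.8), against 12.1% of the whole list, and for 20 cWT-specific members (4.46%, 2.75 to 6.81), against 6.16%. Peaks named primary, the authors' stronger class by p-value, were 15 of the cKO-specific members (1.55%, 0.872 to 2.55), against 2.82%, and 2 of the cWT-specific ones (0.446%, 0.0541 to 1.60), against 1.38%. No member had an authors' p-value under 0.05, the lowest being 0.0581 in cKO and 0.192 in cWT.

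The highest-scored cKO-specific members lay in Galntl6, a glycosyltransferase-family gene of 1140 kb (chromosome 8, 57800446 to 57800701, authors' p-value 0.0581), in Arhgap24, a Rac GTPase-activating gene (chromosome 5, 102777515 to 102778478, 0.102), in Cacna1d (chromosome 14, 30457614 to 30458235, 0.116), in Trappc9 (chromosome 15, 72810854 to 72811045, 0.121) and in Frmd4a. The highest-scored cWT-specific members lay in the chromatin remodeller gene Chd9 (chromosome 8, 90877400 to 90877665, 0.192), the sterol transfer gene Gramd1b (chromosome 9, 40414458 to 40414715, 0.203), the RNA decay gene Smg6 (chromosome 11, 75152806 to 75153215, 0.252), Hivep3, a zinc finger factor gene (chromosome 4, 119912553 to 119912728, 0.303), and Ldlrad4 (chromosome 18, 68096919 to 68097132, 0.304). The strongest single cKO-specific member thus lay in a very long gene with 2 members, not in one of the genes with many, and the strongest member of Trappc9 was its only cKO-specific one.

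At the limits of the rule, Pbx3 (200.6 kb, 1 cKO-specific member) and Tspear (200.9 kb, 2) were the shortest genes counted with a member, and Clec16a (199.6 kb) and Bckdhb (199.1 kb), with 1 cKO-specific deep peak each, were the longest left out. The members nearest to a coding gene end were 1004 bp away, in Rims2, and 1006 bp away, in Med12l, and those just left out 980 bp away, in Celf4, and 971 bp, in Macf1. Of the members, 14 lay inside more than 1 long gene and were counted for the longest, and 29 lay inside another coding gene as well. Only 40 members (2.83%) were within 1000 bp of the end of any other annotated gene, such as a noncoding RNA gene or pseudogene.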

How the data were processed

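The 6 libraries, 3 cKO and 3 cWT, were grouped by genotype as labelled. The builds GRCm38 and mm10 and the tools HOMER 4.11, MACS2 2.2.7.1 and Bowtie2 2.4.4 come from the submitters' processing notes. For their roles, for how replicates were handled and for the rule behind specific peaks, the sources used here give nothing. An adjusted p-value the authors deposited was not used. The authors deposited 1 headerless list per genotype. The signal they deposited has no stated scale. The score the authors deposited equals -125 times log2 of the p-value they deposited, rounded down, in all 12105 peaks, and what that p-value tests is not stated; the reading rests on layout and values. A deeper set of libraries can lengthen a list, and depth is unknown.

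Midpoints were placed in the 21631 protein-coding gene spans of chromosomes 1 to 19 and X of a RefSeq table (GRCm38.p6). Deep interior is the part of a gene more than 1000 bp from every coding gene end, credited to the longest gene covering it. Strand came from the RefSeq promoter table, whose 1892 overlapping windows on opposite strands were complementary in sequence. Genes were named by a rule: the 15 with the most cKO-specific and 10 with the most cWT-specific members, up to 3 and 2 per list, the 10 longest, those with 6 or more of 1 list or 3 or more of the other and 0 opposite, the 5 highest-scored members of each list, the longest runs and the limits of the rule. Ripor2, Sgms1, Dock9 and Pde10a were named for their start windows, after these were seen. The result of 1 gene list is not reported here. Members, lists and rules were chosen with earlier results of these data known. Planned motif counts in peaks need a genome sequence and were made only in promoter windows. Placement, distance and territory functions were tested on simulated data. Python 3.11.15, numpy 2.4.6, pandas 2.3.3, scipy 1.17.1 and matplotlib 3.10.9 were used. Alternatives covered the length limit, the margin, the authors' values, merging, overlap and host choice.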

Additional observations from a re-analysis of the deposited data

How the results depend on the processing

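Of 170 values of 17 results under 11 alternatives, 105 stayed within the counting interval of the main value (gene counts: within 1.5 times) and 65 moved. Signalling genes held more members per Mb than neuronal genes in all 11 alternatives. Each alternative used the same gene lists, written with earlier results of these data known, so this does not test the contrast. In the 10 alternatives that gave the values (all but the choice of the shortest host), long interiors held fewer peaks per Mb than shorter ones. In these, cKO-specific members also outnumbered cWT-specific ones. No paired analysis was possible because each genotype has a single list of peaks and no value by replicate; for that reason no replicate could be left out either.

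With a length limit of 100 kb, 22.6% of the cKO list and 24.99% of the cWT list were members, in 866 and 598 genes. Density was 3.21 and 1.44 per Mb, with 6.48 in shorter genes in cKO; median distances to the host's end were 45.1 and 49.0 kb, and signalling genes held 8.42 members per Mb. With a limit of 500 kb the shares were 2.34% and 3.32%, in 69 and 56 genes, and the densities 1.06 and 0.611 per Mb against 5.28 and 2.01 in shorter genes. The ratio of cKO-specific to cWT-specific members was then 1.74, median distances 168 and 166 kb, neuronal and signalling densities 0.602 and 4.35, and 21.6% of cWT-specific members had another within 10 kb, against 14.1% in the main setting. Member shares and gene counts change with the length limit by its definition, and the cause of the other shifts was not tested.

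A margin of 3000 bp gave 5.79 cKO-specific peaks per Mb in shorter genes. A margin of 10000 bp gave shares of 9.96% and 11.6%, cKO densities of 2.17 in long and 5.64 in shorter genes, and a cKO median distance of 78.4 kb. Leaving out the 10 genes with the most members gave a cKO share of 10.3%, a cKO density of 2.12 and a signalling density of 6.13. Merging peaks within 500 bp gave cKO densities of 2.17 and 5.73, a cKO median width of 334 bp, and 20.6% and 8.51% of members with another within 10 kb, against 30.7% and 14.1%.

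With authors' p-values up to 0.5 the shares were 8.16% and 9.30%, the ratio 4.25, the densities 0.204 and 0.0479 per Mb in long genes and 0.653 and 0.109 in shorter ones. Neuronal and signalling densities were 0.0634 and 0.608, median widths 460 and 415.5 bp, the cKO median distance 88.5 kb, and 4.71% and 0 of members had another within 10 kb. With scores at or above the list's median the shares were 9.70% and 11.7%, in 230 and 158 genes, with densities of 1.01 and 0.501 per Mb against 3.09 and 1.14 in shorter genes. Neuronal and signalling densities were 0.480 and 2.91, the cKO median width 338 bp, and 15.2% and 6.70% had another within 10 kb. Densities and gene counts can only fall here, as fewer peaks are counted. For the other values, the shares with a neighbour among them, the cause was not tested. Unknown depth limits every comparison of the lists' sizes.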
